A study of Mus musculus with 13 samples.

Results

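Bulk RNA-seq of CD45- thymic stroma was used to ask which genes stayed shifted through the first week after sublethal total body irradiation (SL-TBI). The comparison sets all 9 libraries made after SL-TBI (3 each at days 1, 4 and 7) against the 4 libraries at steady state, which together are the 13 libraries of the series. Steady-state mice are called untreated in the sample labels and carry PBS (phosphate-buffered saline) in the names of the count columns, so each of these libraries is named here by its column: PBS day 1 replicate 2, PBS day 4 replicate 2, and PBS day 7 replicates 1 and 2. All groups were wild-type C57BL/6 mice aged 2 months, and no group carried a transgene or an allele of interest. The sort removed CD45+ cells, first with magnetic beads, and red cells were lysed before sorting. The labels do not say whether a library comes from 1 mouse or several, so p-values measure the spread between these libraries.

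The thymic stroma holds epithelial cells, fibroblasts and endothelial cells, together with rarer mural, mesothelial and glial cells. Ionizing radiation breaks DNA and activates p53, which raises genes of cell cycle arrest and apoptosis, and it kills dividing blood precursors in the marrow. Red cell precursors lose CD45 as they mature, so a CD45- gate does not by itself remove them. Late erythroblasts and reticulocytes are recognised by globin mRNA, by the enzymes of heme synthesis and by the skeleton proteins of the red cell membrane.

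Total counts ran from 15721866 to 52056896 per library. The stromal markers Epcam (epithelium), Pdgfra (fibroblasts), and Pecam1 and Cdh5 (endothelium) were detected in all 13 libraries, as was H2-Aa (MHC class II), and none of these 5 genes passed the test of the mean described below. Ptprc, which encodes CD45, was also detected in every library, at 24.0 to 119 CPM (counts scaled to a common library size) at steady state, 12.7 to 14.99 at day 1, 4.07 to 4.54 at day 4, and 21.6, 606.5 and 224 at day 7. The day 7 libraries thus differed widely from each other in this gene.

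A gene was called lasting when the mean of the 3 days differed from steady state (edgeR quasi-likelihood test, Benjamini-Hochberg adjusted p of at most 0.05) and its fitted change exceeded 1.5-fold in the same direction at each day. Of 19984 genes tested, 67 passed the test of the mean (0.335%), 21 higher (0.105%) and 46 lower (0.23%), and 2442 had an unadjusted p under 0.05. The lasting genes numbered 42 (0.21%), with 5 higher (0.025%) and 37 lower (0.185%). These numbers were unstable: with 1 library left out, 0 to 35 genes were lasting higher and 23 to 103 lasting lower, and by DESeq2 48 and 116. A stricter test that asks for a change at every day by itself called 0 genes, and by DESeq2 4 genes. Before adjustment, the largest of the 3 daily p-values was under 0.05 for 100 genes (0.5%), and 32 of the 42 lasting genes were among them. Day 7 was the weakest of the days, with 1 gene higher (0.005%) and 0 lower (0%) on its own at an adjusted p of at most 0.05, so a lasting change at day 7 is a fitted size and not a call of that day. In bulk samples, fewer cells of a type and less RNA per cell cannot be told apart.

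**Figure D1:**
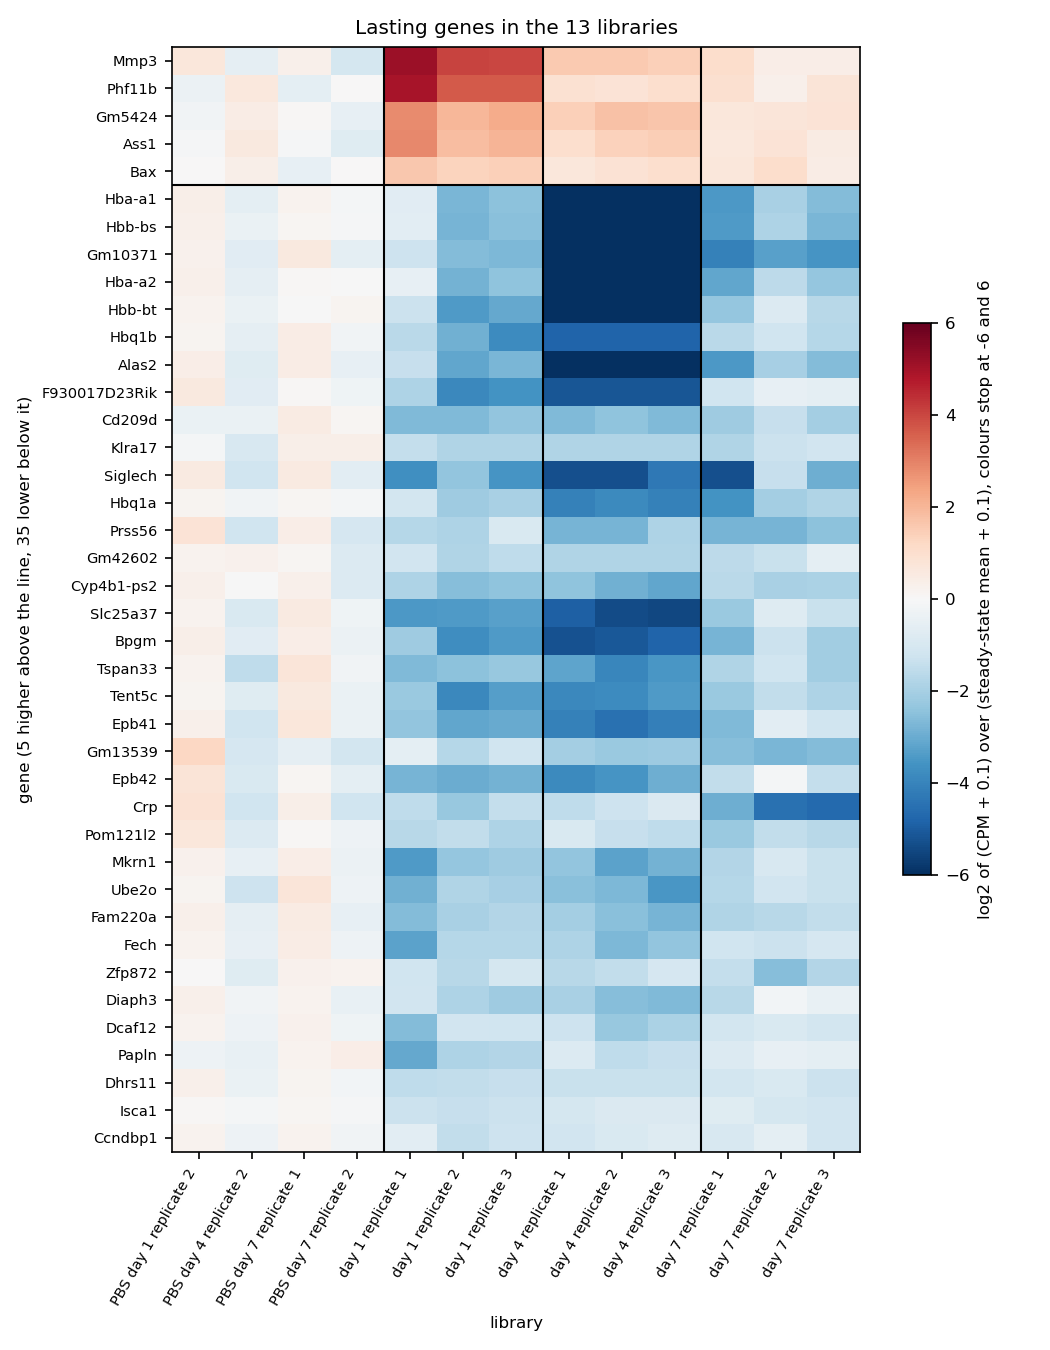
Heat map of 40 of the 42 lasting genes (rows) in the 13 libraries (columns), coloured by the log2 ratio of CPM to the steady-state mean with 0.1 added to both. The 5 higher genes are darkest at day 1, and among the 35 lower genes drawn most red cell genes are darkest at day 4 and paler at day 7, where Epb42 in replicate 2 is near white.

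The largest group among the genes that stayed lower was of red cell genes. Of the 37, 19 belong to 4 lists of red cell genes (globins, heme and iron enzymes, membrane skeleton, late maturation), which were drawn up after the values had been seen and carry no test. The 19 include Isca1, which many other cell types also use. In 13 of these 19 genes, and in 24 of all 37, all 9 irradiated libraries lay below all 4 at steady state. This arrangement was found for 72 of all genes (0.36%). The 37 were chosen on these same values, so the comparison is a description and not a test. Their fitted log2 fold changes for the mean of the 3 days ran from -5.35 to -1.07, and at day 7 from -2.70 to -0.89. Sizes differed between the days in 15 of the 19 (edgeR F-test across the days, adjusted p of at most 0.05, reached by 8.17% of all genes).

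All 6 globin genes measured were lasting lower (0.185% of all genes). At single days, 1 of them was lower at day 1, 6 at day 4 and 0 at day 7 (0.671%, 0.24% and 0% of all genes). Hbb-bs (chromosome 7, 103826534 to 103828096, minus strand, GRCm38), a beta-globin gene, had 22100, 13760, 19650 and 16990 CPM at steady state, in the order of the libraries given above. It had 11730, 2616 and 3150 CPM at day 1, 2.52, 6.88 and 5.31 at day 4, and 1708, 5001 and 2737 at day 7. Every irradiated library lay below every steady-state library, day 1 replicate 1 came closest, and day 4 was lower than all others. The mean of the 3 days fell by 5.33 ± 0.42 on the log2 scale (SE; adjusted p = 4.96e-05, edgeR), and the 3 days differed from each other (adjusted p = 0.000109). Taken singly, day 4 passed the edgeR test (adjusted p = 3.32e-05), and day 1 (0.158) and day 7 (0.117) did not. With the 9 irradiated libraries fitted as 1 group, the log2 fold change of Hbb-bs was -2.60 and missed the threshold (adjusted p = 0.71, edgeR). The alpha-globin gene Hba-a1 (chromosome 11, 32283511 to 32284465, plus strand) had 4299 to 8458 CPM at steady state, 963 to 4094 at day 1, 0.645 to 2.55 at day 4 and 605 to 1680 at day 7. Its libraries did not overlap either, and its mean fell by 5.35 ± 0.43 (adjusted p = 4.96e-05).

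The other globin genes were also lowest at day 4, and differed in whether day 1 or day 7 lay closest to steady state. Hbb-bt, the second beta-globin gene of the locus, had fitted log2 fold changes of -2.27, -10.91 and -1.46 at days 1, 4 and 7. Hba-a2 had -1.54, -11.16 and -2.20, and in this gene alone of the 6 the libraries overlapped, because day 1 replicate 1 (1143 CPM) lay above PBS day 4 replicate 2 (1117 CPM). Hbq1a and Hbq1b encode theta-globins and were expressed far lower, at most 3.64 CPM in any library. Hbq1b had no count in any day 4 library, which makes it at least 26.5-fold lower than steady state there, taking 3 counts per library as the floor. Near-identical copies limit the separate values: of the 50-base words in the Hba-a2 transcript 86.9% also occur in Hba-a1, 58.3% of those in Hbb-bt occur in Hbb-bs, and 30.5% of those in Hbq1b occur in Hbq1a. Summed over the 6 genes, globin mRNA took 19830 to 33600 CPM at steady state, 3889 to 17330 at day 1, 3.55 to 11.1 at day 4 and 2675 to 7734 at day 7.

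Of 19 heme and iron genes tested, 5 were lasting lower (0.185% of all genes): Alas2, Slc25a37, Fech, Bpgm and Isca1. Alas2 (chromosome X, 150547375 to 150570638, plus strand), the erythroid form of the first and rate-limiting enzyme of heme synthesis, had 3299, 1510, 3471 and 1803 CPM at steady state. It had 966, 287 and 378 CPM at day 1, 5.74, 3.44 and 3.46 at day 4, and 233, 624 and 410 at day 7. No irradiated library reached the lowest steady-state library, and the mean fell by 4.68 ± 0.36 (adjusted p = 4.96e-05, edgeR). Exons of other genes cover 15.5% of its exon bases, and reads there were left uncounted. Slc25a37, the mitochondrial iron importer mitoferrin-1, fell by 3.33 ± 0.27 (adjusted p = 5.23e-05), although day 7 replicate 2 (84.8 CPM) lay above the lowest steady-state library (76.7 CPM). Fech, ferrochelatase, which inserts iron into the porphyrin ring as the last step, fell by 1.83 ± 0.26 (adjusted p = 0.00605) and passed in 12 of 13 fits that each left out 1 library. Bpgm, which makes the 2,3-bisphosphoglycerate that lowers the oxygen affinity of hemoglobin, had 396 to 825 CPM at steady state and 16.7 to 262 in the irradiated libraries, and fell by 3.29 ± 0.32 (adjusted p = 0.000244).

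The other 14 heme and iron genes were not called in either direction. The median over all 19 was -0.04, -0.45 and -0.18 at days 1, 4 and 7, against -0.10, -0.13 and 0 over all genes, and 3 of the 19 had positive fitted values at all 3 days. Alad, the second enzyme of the pathway, had fitted log2 fold changes of 0.74, 0.73 and 0.44 at days 1, 4 and 7, and did not pass the test. Tfrc, the transferrin receptor, had 0.26, -1.72 and 1.14 and did not pass either.

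GATA1, the master factor of erythroid cells, binds the word GATA with its flanks, and the promoters of 3 strongly lowered red cell genes are shown because they hold it. The windows of Hbb-bt, Hbq1a and Hbq1b hold none. Each run holds the 250 bases before the start that RefSeq gives on GRCm38.p6, which in these 3 genes lies inside the gene span of the counting annotation, written 5′ to 3′ on the gene's strand, with the GATA word in capitals. This word is GATA with A or T before it and A or G after it, on either strand. The Hba-a1 window is chr11:32283422-32283671, that of Hbb-bs is chr7:103827929-103828178 on the minus strand, and that of Alas2 is chrX:150547167-150547416.
Hba-a1: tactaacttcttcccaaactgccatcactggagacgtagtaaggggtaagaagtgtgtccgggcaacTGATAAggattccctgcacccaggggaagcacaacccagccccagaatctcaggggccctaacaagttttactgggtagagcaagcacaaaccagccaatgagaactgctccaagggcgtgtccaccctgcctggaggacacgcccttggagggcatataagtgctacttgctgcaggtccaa
Hbb-bs: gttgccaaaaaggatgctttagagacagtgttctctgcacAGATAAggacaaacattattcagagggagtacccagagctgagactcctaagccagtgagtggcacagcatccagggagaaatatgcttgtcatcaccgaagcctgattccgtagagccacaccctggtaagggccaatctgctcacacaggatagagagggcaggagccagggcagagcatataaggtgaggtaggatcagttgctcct
Alas2: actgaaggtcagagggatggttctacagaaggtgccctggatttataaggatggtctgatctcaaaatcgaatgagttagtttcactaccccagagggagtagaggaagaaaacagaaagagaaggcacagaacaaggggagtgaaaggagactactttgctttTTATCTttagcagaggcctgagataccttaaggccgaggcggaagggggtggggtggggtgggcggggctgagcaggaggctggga
The word stood 183 bases before the start in Hba-a1, 210 in Hbb-bs and 86 in Alas2. RefSeq windows were found for 30 of the 37 lasting lower genes, and 13 of their 34 windows held a GATA word (38.2%), against 26.5% of all 32851 windows. For the red cell genes alone it was 6 of 17 windows (35.3%). The CACCC-box word CCACCC, bound by KLF1 and other KLF factors, stood in 26.5% of the 34 windows, in 23.5% of the 17 and in 28.1% of all. These matches are a description of letters and not of binding.

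Of 11 red cell membrane skeleton genes tested, 4 were called lower for the mean (0.23% of all genes) and 3 were lasting (0.185%). At single days, 5 were lower at day 1, 5 at day 4 and 0 at day 7 (0.671%, 0.24% and 0% of all genes). The medians over the list were -2.15, -3.49 and 0.10. Epb42 (protein 4.2 of the membrane skeleton) had 16.4, 5.05, 10.4 and 6.30 CPM at steady state, 1.11 to 1.30 at day 1, 0.581 to 1.19 at day 4, and 3.32, 8.71 and 3.47 at day 7, where day 7 replicate 2 lay within the steady-state range. Its mean fell by 2.45 ± 0.34 (adjusted p = 0.00531, edgeR). Epb41 (protein 4.1R, which anchors the skeleton to the membrane) fell by 2.75 ± 0.34 (adjusted p = 0.0022). Its libraries overlapped, as day 7 replicate 2 (361.8 CPM) lay above PBS day 4 replicate 2 (243.9 CPM). Slc4a1, the anion exchanger band 3, passed the test of the mean (fall of 4.08 ± 0.47, adjusted p = 0.00129) but was not lasting, since its fitted log2 fold change was -4.23 at day 1, -8.38 at day 4 and 0.37 at day 7. The list of 15 erythroid markers chosen with the design had 14 genes tested, of which 6 passed the test of the mean, all lower, and 3 were lasting, Alas2 and Epb42 among them. The summed level of that list ran from 1588 to 3668 CPM at steady state, 304 to 986.5 at day 1, 15.1 to 22.0 at day 4 and 307 to 877 at day 7. Alas2 alone gave most of this sum at steady state (1510 to 3471 CPM). The medians over the 14 genes were -2.17, -4.35 and 0.25 at days 1, 4 and 7, so the list as a whole was not low at day 7. The defining markers Alas2 and Slc4a1 were above 0 in every library.

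Of 15 genes of the last steps of red cell maturation tested, 5 were lasting lower (0.185% of all genes). The list had medians of -1.52, -1.74 and -0.91 at days 1, 4 and 7. Tent5c, a poly(A) polymerase that lengthens mRNA tails, had 929.5, 493, 1231 and 615.5 CPM at steady state, 56.1 to 175 at day 1, 56.2 to 78.6 at day 4, and 174, 292 and 226 at day 7. The libraries did not overlap, and its mean fell by 2.82 ± 0.29 (adjusted p = 0.000449, edgeR). Ube2o, the ubiquitin enzyme that clears ribosomes from reticulocytes, fell by 2.15 ± 0.31 (adjusted p = 0.00649). In Ube2o, day 7 replicate 2 (16.06 CPM) lay above PBS day 4 replicate 2 (15.25 CPM). The ubiquitin ligase Mkrn1 fell by 2.20 ± 0.26, and Dcaf12, a substrate receptor of a cullin ligase, fell by 1.43 ± 0.25 (adjusted p = 0.00129 and 0.0338), the latter in only 5 of 13 fits that each left out 1 library. Bnip3l, which drives the removal of mitochondria from reticulocytes, had 287 to 374 CPM at steady state and 107 to 249 after SL-TBI without overlap, and missed the threshold (log2 fold change -0.83 ± 0.17, adjusted p = 0.0588).

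None of 9 erythroid regulators tested was called in either direction for the mean, and their medians were -0.37, -0.42 and 0.37 at days 1, 4 and 7. Klf1, chosen here after its values were seen, had 0.172 to 0.614 CPM at steady state, 0.0566 to 0.272 at day 1, 0.193 to 0.352 at day 4, and 0.554, 10.1 and 0.488 at day 7. Gata1 had 0.702, 0.0750, 0.0215 and 0.0484 CPM at steady state and 0.390, 5.39 and 0.678 at day 7. In both genes 1 library, day 7 replicate 2, stood far above all others, while the other day 7 values of Klf1 lay within the steady-state range. Day 7 replicate 2 also had the highest Ptprc and thymocyte gene levels, whose part in the result was not tested. The difference between the days passed the test for Klf1 (adjusted p = 0.0253) and not for Gata1 (adjusted p = 0.0736). At day 7, no regulator passed the test against steady state.

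**Figure D2:**
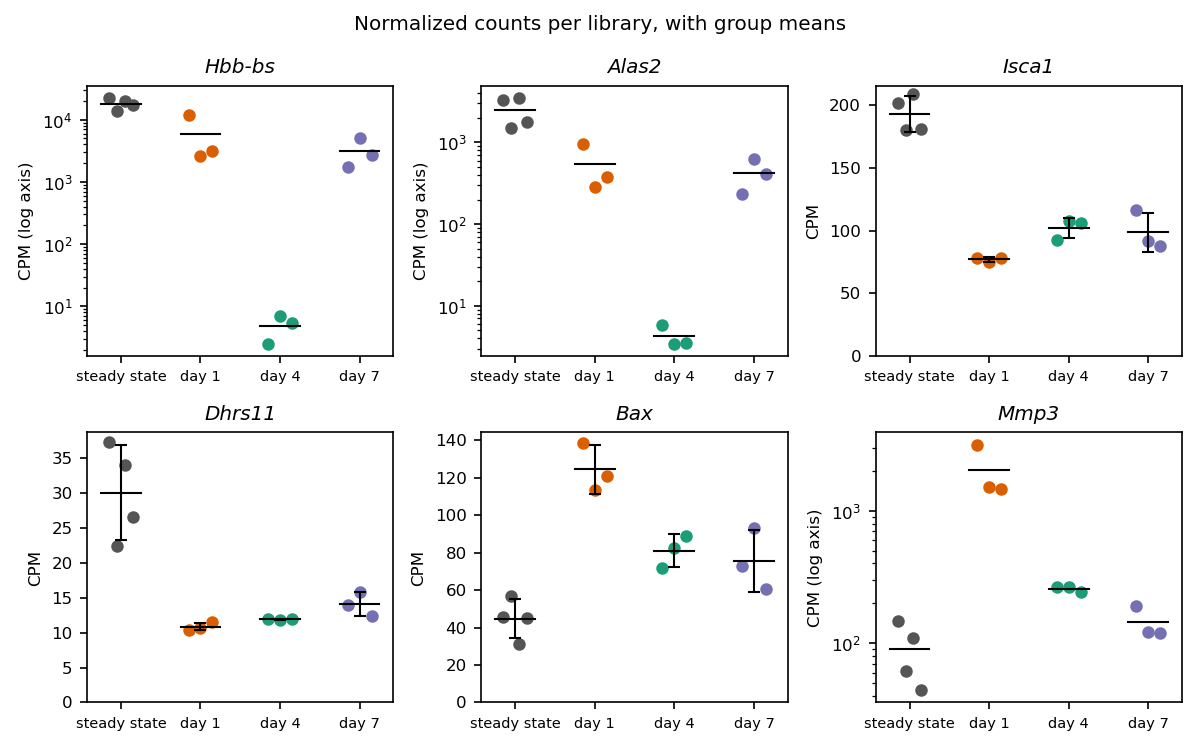
CPM of 6 lasting genes in each library (points), by group from steady state to day 7, with the group mean (line); bars in the panels with linear axes are SDs, and Hbb-bs, Alas2 and Mmp3 are on log axes. Hbb-bs and Alas2 reached their lowest level at day 4, Isca1 and Dhrs11 were similarly low at all days, and Bax and Mmp3 were highest at day 1.

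A smaller set of genes was lower by a similar amount at every day. Isca1 (chromosome 13, 59755409 to 59769810, minus strand), which builds mitochondrial iron-sulfur clusters and is used by many cell types, had 201, 180, 209 and 181 CPM at steady state. It had 77.9, 75.0 and 78.0 at day 1, 92.6, 107 and 106 at day 4, and 116, 92.0 and 87.6 at day 7. The gap between the groups was wider than the spread within either, and the mean fell by 1.07 ± 0.13 (adjusted p = 0.00146, edgeR). Dhrs11 (chromosome 11, 84820856 to 84828994, minus strand), a short-chain dehydrogenase, had 37.4, 22.5, 34.0 and 26.6 CPM at steady state and 10.4 to 15.8 in the 9 irradiated libraries, and fell by 1.30 ± 0.16 (adjusted p = 0.00201). Fam220a (chromosome 5, 143548706 to 143564531, plus strand), which encodes an inhibitor of STAT3, had 68.6, 38.3, 78.3 and 39.8 CPM at steady state and 8.18 to 20.2 after SL-TBI, and fell by 2.04 ± 0.23 (adjusted p = 0.000913).

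These 3 genes were the only lasting genes that also passed when the 9 irradiated libraries entered the fit as 1 group, so that the spread between days counted as error. In that fit 3 genes passed in all, each lower, with adjusted p = 0.0209 for Isca1, 0.0184 for Dhrs11 and 0.0184 for Fam220a. None of the 3 showed a difference between the days (edgeR F-test, adjusted p = 0.271, 0.509 and 0.284), which does not show that the days are equal. Genes with little spread between days pass the fit as 1 group more easily. The lack of a difference thus follows in part from how the 3 were picked and is not separate evidence. The fitted log2 fold changes of Isca1 were -1.33, -0.92 and -0.97 at days 1, 4 and 7, those of Dhrs11 were -1.47, -1.34 and -1.10, and those of Fam220a were -2.06, -2.43 and -1.65.

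**Figure D3:**
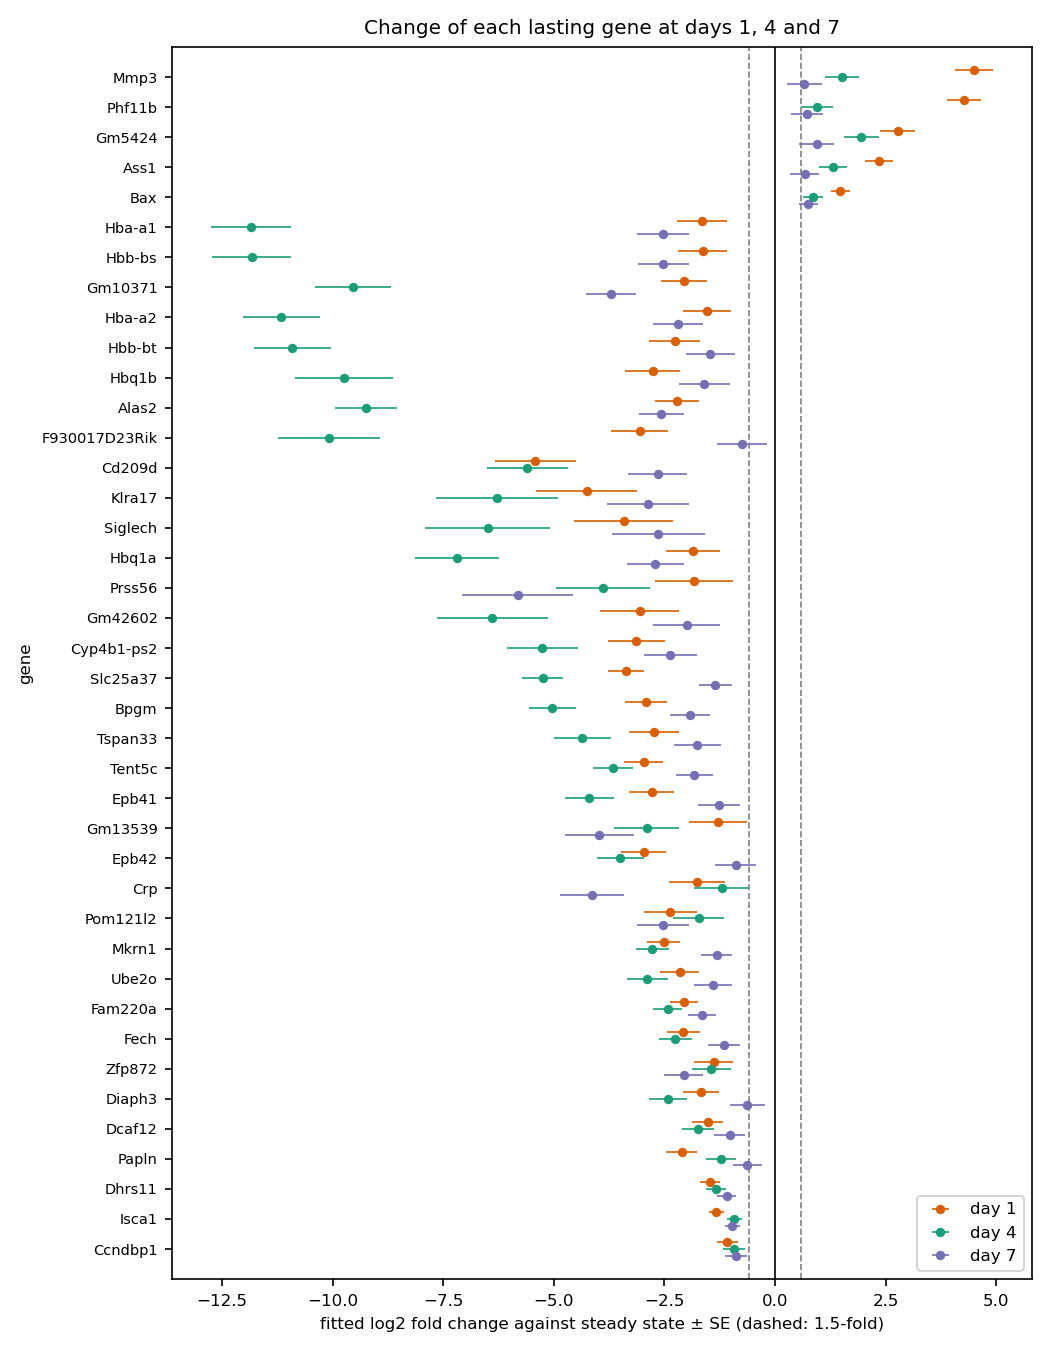
Fitted log2 fold change against steady state (± SE) of 40 of the 42 lasting genes at day 1, day 4 and day 7; dashed lines mark 1.5-fold. Day 4 held the largest fall in 28 of the 37 lower genes, and day 1 the largest rise in all 5 higher genes.

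Genes listed as markers of plasmacytoid dendritic cells, the interferon-producing dendritic cells, were the next group, with 3 genes at low levels. Siglech, a receptor that defines these cells in mice, had 5.37, 1.58, 5.53 and 2.37 CPM at steady state. It had 0.198, 0.650 and 0.230 at day 1, 0, 0 and 0.0926 at day 4, and 0, 1.37 and 0.407 at day 7. All irradiated libraries were below all at steady state, and the mean fell by 4.19 ± 0.78 (adjusted p = 0.0449, edgeR). Cd209d, a C-type lectin, fell by 4.56 ± 0.55 (adjusted p = 0.00172), and Klra17, a killer-lectin-like receptor, by 4.47 ± 0.77 (adjusted p = 0.0441). Leaving out 1 library kept the call of Cd209d in 13 of 13 fits, that of Siglech in 3 of 13, and that of Klra17 in 1 of the 10 fits in which it could be tested. Both rest on few counts, with at most 36 for Cd209d and 16 for Klra17 in a library. Klra17 had no count at day 4, which allows only a statement of at least 2.43-fold lower there. A list of 19 plasmacytoid genes, drawn up after the values were seen, had 17 tested, of which 3 were lasting lower (0.185% of all genes). For the mean of the 3 days the median over the 17 was -1.07, against -0.10 over all genes. Fitted values were negative at all 3 days in 9 of the 17 and positive in 3, against 24.6% and 18% of all genes. Other members of the list include Ccr9, shared with thymocytes, and Bst2, an interferon-stimulated gene that was called higher. Ccr9 had 25.5 to 98.0 CPM at steady state, 1.31 to 1.63 at day 4 and up to 328 at day 7.

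The other 15 lasting lower genes share no list, and they include Dhrs11 and Fam220a. Papln (papilin, a matrix protein of the ADAMTS-like family) had 28.0, 25.4, 40.1 and 45.3 CPM at steady state and 4.10 to 24.5 after SL-TBI without overlap, and fell by 1.32 ± 0.24 (adjusted p = 0.0432, edgeR). Diaph3, a formin that builds actin filaments, fell by 1.58 ± 0.29 (adjusted p = 0.045), with day 7 values of 2.65, 7.81 and 6.37 CPM that overlapped the 6.30 to 10.9 CPM of steady state. Ccndbp1, which binds cyclin D, fell by 0.96 ± 0.18 (adjusted p = 0.0479) and lies 986 bases from Epb42 on chromosome 2. Tspan33, a tetraspanin of erythroid and B cells, fell by 2.95 ± 0.39 (adjusted p = 0.0032), although day 7 replicate 2 (1.045 CPM) lay above PBS day 4 replicate 2 (0.8001 CPM). Crp, the acute-phase protein C-reactive protein, had fitted log2 fold changes of -1.75, -1.21 and -4.14, its largest at day 7. Prss56, Zfp872, Pom121l2 and Gm13539 had steady-state means under 5 CPM, as did 13 of the 37 lower genes. Calls for the mean were narrow here. Leaving out 1 library kept those of Papln, Crp and Gm13539 in 3 of 13 fits each, of Diaph3 in 4 and of Ccndbp1 in 2. Those of Zfp872 and Pom121l2 held in 1 each, while Prss56 passed in 2 of 11 and Gm42602 in 2 of 10. The noncoding or pseudogene entries were Gm10371 (antisense, 8.83 to 21.3 CPM at steady state and at most 0.0370 at day 4), F930017D23Rik (no count at day 4, at least 34-fold lower), Cyp4b1-ps2 and Gm42602 (no count at day 4, at least 2.51-fold lower). Reads were not counted by strand, so the strand of the Gm10371 reads is not known, though exons of other genes cover 0% of its exon bases.

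Across the 37 lower genes the median fitted log2 fold change was -2.21 at day 1, -4.36 at day 4 (-3.89 with the 4 genes without a count set to their bound) and -1.81 at day 7. Day 7 held the smallest fall in 25 of them. At single days, 22 of the 37 passed the test at day 1, 26 at day 4 and 0 at day 7. Of all genes, 0.671%, 0.24% and 0% were lower at these days. The 37 were chosen on the same values, so these shares are a description and not a test.

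The 5 lasting higher genes all had their largest rise at day 1 and their smallest at day 7. Their number was 35 without PBS day 4 replicate 2 and 0 without PBS day 7 replicate 2 or without day 7 replicate 1, was 13 without a filter on low counts and 48 by DESeq2, and the thymocyte covariate gave 7 others. Bax (chromosome 7, 45461697 to 45466898, minus strand), the p53 target that opens the mitochondrial membrane in apoptosis, had 45.4, 57.0, 31.5 and 45.3 CPM at steady state. It had 139, 114 and 121 at day 1, 71.7, 82.8 and 88.9 at day 4, and 73.0, 93.1 and 60.6 at day 7. All 9 irradiated libraries lay above all 4 at steady state, which 66 of all genes showed (0.33%), and the mean rose by 1.03 ± 0.18 on the log2 scale (adjusted p = 0.0391, edgeR). The call of Bax was narrow: it held in 5 of 13 fits that each left out 1 library, and its adjusted p ran up to 0.126 (without PBS day 7 replicate 1). Exons of other genes cover 12.2% of its exon bases.

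Mmp3, stromelysin-1, a metalloproteinase of fibroblasts that degrades matrix, had 146, 61.9, 110 and 44.3 CPM at steady state. It rose to 3146, 1504 and 1457 at day 1 and had 265, 268 and 242 at day 4, then 190, 121 and 120 at day 7. The day 7 libraries overlapped steady state, and the mean rose by 2.22 ± 0.35 (adjusted p = 0.0146), with 0.0504 without PBS day 7 replicate 1. Its 3 days differed from each other (adjusted p = 0.000433). None of the other 15 matrix proteases and inhibitors tested was lasting. The Mmp3 promoter is printed because it holds the AP-1 word TGAGTCA, in capitals, 46 bases before the start (chr9:7445572-7445821, plus strand), a word found in either direction in 4.46% of all windows.
Mmp3: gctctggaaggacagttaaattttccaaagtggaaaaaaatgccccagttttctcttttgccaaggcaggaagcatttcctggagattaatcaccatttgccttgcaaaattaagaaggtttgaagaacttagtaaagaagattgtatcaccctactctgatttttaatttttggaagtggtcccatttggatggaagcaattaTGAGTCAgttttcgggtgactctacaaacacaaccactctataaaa

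Ass1, argininosuccinate synthase of the urea cycle and arginine synthesis, had 3.54 to 8.78 CPM at steady state, 21.7 to 44.2 at day 1, 11.8 to 16.5 at day 4 and 8.49 to 10.4 at day 7. Only day 7 replicate 3 (8.49 CPM) fell inside the steady-state range, and the mean rose by 1.44 ± 0.27 (adjusted p = 0.0456, edgeR). The processed pseudogene Gm5424 rose by 1.88 ± 0.34 (adjusted p = 0.0397, edgeR), but 76.5% of its 50-base words occur in the Ass1 transcript. Reads that match both equally cannot be assigned to either gene, and others may be misplaced, so the pair is taken as 1 signal. Phf11b, a PHD finger gene with closely related copies beside it, between which reads may be split, had 3.19 to 7.60 CPM at steady state, 63.4 to 155 at day 1, 8.85 to 9.94 at day 4 and 6.08 to 9.72 at day 7, and rose by 1.98 ± 0.32 (adjusted p = 0.0156). Leaving out 1 library kept Phf11b past the test of the mean in 10 of 13 fits, Gm5424 in 3 and Ass1 in 2. Without the day 1 libraries, none of the 5 genes was lasting over the remaining days.

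Other p53 targets mostly had positive values, and few passed. Of 35 tested, 3 were called higher for the mean (Bax, Aen, Dglucy) against 0.105% of all genes, 21 had positive fitted values at all 3 days against 18% of all genes, and 1 had negative values. The median over the 35 was 0.74, 0.44 and 0.27 at days 1, 4 and 7, against -0.10, -0.13 and 0 over all genes. Aen, a nuclease induced by p53, had 27.5 to 31.7 CPM at steady state, 62.9 to 89.2 at day 1, 51.1 to 60.03 at day 4 and 36.5 to 48.5 at day 7 without overlap. It rose by 0.92 ± 0.15 (adjusted p = 0.0203, edgeR), and its day 7 value of 0.51 lay just under the minimum of 0.585 (1.5-fold). Dglucy, a mitochondrial glutamate enzyme and p53 target, rose by 1.21 ± 0.21 (adjusted p = 0.031) and stood just outside at day 7 as well, at 0.57. Aen passed in 8 and Dglucy in 5 of 13 fits that each left out 1 library. The nearest inside were Mmp3 and Ass1, both 0.66, and among lower genes Diaph3 and Papln, both -0.63. Cdkn1a, the cell cycle inhibitor p21, had 1.80, 1.39 and 0.50 at the 3 days and an adjusted p of 0.0726 for the mean. Psrc1, a spindle protein and p53 target, had 1.66, 1.37 and 1.23 without overlap and an adjusted p of 0.0513. In the BCL2 family list, Bax was the only 1 of 14 genes called for the mean (0.335% of all genes).

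The genes that passed for the mean and were not lasting numbered 25, and in 6 of them the days differed in sign. All 16 higher genes among them passed at day 1 on its own, and 9 were lower. Of 25 interferon-stimulated genes tested, 25 were higher at day 1 (1.68% of all genes) and 6 were higher for the mean (0.105% of all genes), yet none was lasting. Ifit3 had fitted log2 fold changes of 4.67, 0.48 and -0.09, Isg15 3.99, 0.09 and 0.14, and Irf7 3.17, 1.04 and 0.18 at days 1, 4 and 7. The acute-phase gene Lcn2, the only 1 of 22 inflammation genes called for the mean (0.335% of all genes), had 6.12, 1.89 and 0.47. Ccn5, the only 1 of 20 matricellular genes called for the mean (0.335% of all genes), had 3.33, 0.50 and 1.61. Of 10 dendritic cell genes, Siglech alone was called for the mean (0.335% of all genes).

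**Figure D4:**
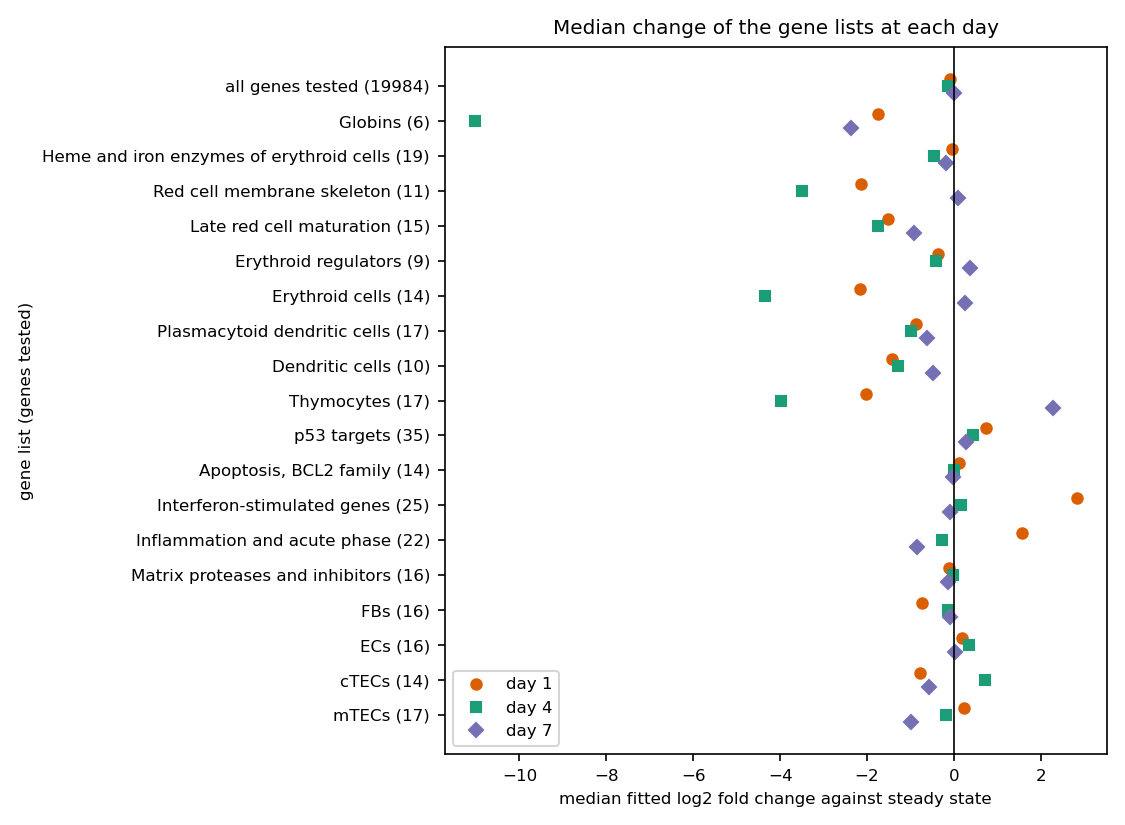
Median fitted log2 fold change of 18 gene lists and of all genes tested, at days 1, 4 and 7 against steady state, with the genes tested in parentheses. Globins lay left of 0 at all 3 days, p53 targets right of 0 at all 3 days, and thymocyte and interferon-stimulated genes changed side or returned near 0.

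Thymocyte genes were not lasting. Their 17 genes had medians of -2.03, -3.98 and 2.27 at days 1, 4 and 7, and their summed level was 328 to 1099 CPM at steady state, 158 to 188 at day 1, 34.9 to 52.4 at day 4 and 292 to 6892 at day 7. Cd3e, part of the T cell receptor complex, had at most 54.8 CPM at steady state and 14.2, 315.5 and 161 at day 7. Globin mRNA and thymocyte mRNA were thus both low at day 4, and at day 7 thymocyte genes exceeded the highest steady-state library in 2 of 3 libraries while globin genes stayed below the lowest in all 3. With the thymocyte score as a covariate 26 lower genes were lasting, 23 of them among the 37, and 7 higher, none among the 5. The part of CD45+ cells in the results was not tested otherwise.

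**Figure D5:**
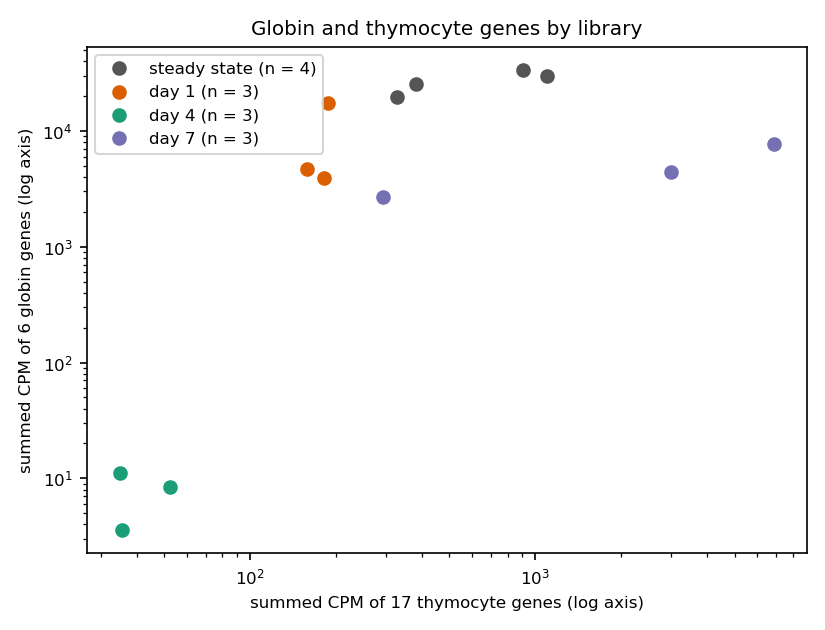
Summed CPM of 6 globin genes against summed CPM of 17 thymocyte genes in each library, both on log axes, coloured by group. The 3 day 4 libraries lie at the lower left, and the 3 day 7 libraries lie below the 4 steady-state libraries in globin mRNA, at 2675 to 7734 CPM against 19830 to 33600.

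Many other lists, among them those of stromal identity and function, held no gene called for the mean, a test that 0.335% of all genes passed. This was so for fibroblasts, endothelial cells, cTECs, mTECs, pericytes and smooth muscle, mesothelial and Schwann cells, for collagens, Wnt, BMP and FGF signalling, complement, MHC class I and class II, thymopoietic factors, cell cycle, DNA double-strand break repair, B cells, macrophages, neutrophils and megakaryocytes, muscle, parathyroid and broad fibroblast progenitor genes, metallothioneins, glucocorticoid response, clock, cholesterol and lipid genes. At that share most short lists would hold no called gene, so the absence of calls is not a result about these lists. The fibroblast median was -0.73, -0.14 and -0.08 at days 1, 4 and 7, and the endothelial median 0.18, 0.34 and 0.02. Some lists had medians of 1 sign at each day without a call for the mean: the 16 immediate early and heat shock genes had medians of -0.58, -0.54 and -0.80, and the 12 adipocyte genes 0.89, 1.39 and 0.65. In the list of secreted senescence factors 1 of 18 genes was lasting (0.21% of all genes), Mmp3.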

How the data were processed

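Bulk polyA RNA-seq gave one library per sample of CD45- thymic cells. The authors trimmed reads (Trimmomatic 0.38), aligned them to GRCm38 (STAR 2.7.0e) and deposited raw counts per gene (featureCounts 1.6.3), with no strand used and multi-mapping reads left out by default. Counts were tested here with edgeR 4.0.16 (R 4.3.3, limma 3.58.1): TMM scaling, filterByExpr (minimum count 10), a quasi-likelihood fit with a coefficient for each of the 4 conditions, the contrast of the mean of the 3 days against steady state, and Benjamini-Hochberg adjustment. SE is the log2 fold change divided by the root of F. The day contrasts share the 4 control libraries. DESeq2 1.42.0 and other settings are in the closing section. The script was tested on simulated data. No 2 libraries agreed within sampling noise.

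The members and lists were chosen with earlier results of these data known. The red cell and plasmacytoid lists and further genes named in the text were chosen after their values were seen. The rule for named genes took protein-coding lasting genes without overlap and a higher group mean of at least 5 CPM (up to 12 in each direction by the smallest daily change), lasting members of lists, and checks of cell type; up to 3 members of lists without a lasting gene were also taken, and are given as counts. Promoters came from RefSeq. Counting error alone underlies the floors. Values of some genes are not reported here, though the counts include them.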

Additional observations from a re-analysis of the deposited data

Results flagged for a closer look

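At steady state, 1 library lay far from the other 3 (Dixon's ratio of its gap to the range above the 95% critical value) for Ifit3 (0.936), Gata1 (0.921) and Gm13539 (0.877). Of 63 values examined 3 passed, and chance gives 3.15 at 1 in 20.

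Among the 42 lasting genes, 24 differed in size between days 1, 4 and 7 (edgeR F-test, adjusted p), 4 higher and 20 lower. The higher genes were Phf11b (0.00021), Mmp3 (0.000433), Ass1 (0.02002) and Gm5424 (0.0368). The globin genes were Hbb-bs (0.000109), Hba-a1 (0.000119), Hba-a2 (0.000119), Hbb-bt (0.000121), Hbq1b (0.00441) and Hbq1a (0.0136). Among the other red cell genes were Alas2 (0.000159), Slc25a37 (0.000439), Bpgm (0.00555), Epb41 (0.00935), Epb42 (0.0096), Tent5c (0.0365) and Mkrn1 (0.0404). The remaining genes were Gm10371 (0.000668), F930017D23Rik (0.00192), Diaph3 (0.0452), Papln (0.0488) and Crp (0.0498). Crp was the only one of the genes named here with its largest change at day 7.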

How the results depend on the processing

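Of 54 genes refitted under the 19 to 24 alternatives in which each could be tested, none changed direction in any of them, and Dhrs11, Fam220a and Isca1 passed in all 24. The 67 genes called (21 higher, 46 lower) and the lasting 5 higher and 37 lower became, with DESeq2, 444 (220 and 224) and 48 and 116, with 4 changed at each day. Without a filter they became 217 (51 and 166) and 13 and 104. With at least 10 counts in every library 25 were lower, and 18 lasting lower. With the 9 irradiated libraries as 1 group 3 were called (0 and 3), and 0 and 3 lasting. Without day 1 these were 34 called (2 higher) and 1 lasting higher, without day 4 29 called (14 lower) and 12 lasting lower, and without day 7 506 (197 and 309), 123 and 297, with 6 at each day. The thymocyte covariate gave 37 higher, and the covariate for the tag family in the column names 1 lasting higher. With no size minimum 17 were lasting higher, and with 2-fold 0.

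The replicate numbers do not pair the libraries: same-numbered libraries had a mean correlation of deviations of -0.123 (-0.843 to 0.356), and 1 of 13 was closest to its own number. With the replicate block 24 genes were called (3 higher, 21 lower), and 1 and 18 were lasting.

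Leaving out 1 library gave 31 to 199 called, 2 to 61 higher and 29 to 138 lower, with 0 to 35 lasting higher and 23 to 103 lasting lower. Lasting genes numbered 138 without PBS day 4 replicate 2, 24 without PBS day 1 replicate 2, and 25 without PBS day 7 replicate 1. Of the 42, 22 stayed lasting in all 13 fits. The counts of such fits given above for single genes concern the test of the mean alone and not the lasting rule.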
